A study of Mus musculus with 6 samples.

Results

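Tac2 neurons of the embryonic hypothalamus were chosen by measured values in the E15.5 and E17.5 libraries, as cells with at least 2 UMIs (unique molecular identifiers) of Tac2, fewer than 10 Pomc UMIs per 10000 UMIs, and at least 1 UMI of 3 or more among 6 neuronal genes (Elavl3, Mapt, Snap25, Stmn2, Syt1 and Tubb3). The rule found 75 cells among 2015 neurons at E15.5 and 117 cells among 1134 neurons at E17.5, together 192 of the 13953 cells of the series. Cells had been sorted for red fluorescence from pooled hypothalami of C57BL/6 mice, at least 6 pups per age, bred from male and female POMCDsRed/+ parents, and the deposited cells all carried a Pomc UMI. The transgene is meant to mark cells in which the Pomc promoter is or was active, so that Tac2 neurons that never used it should be outside the sort. The paper also found microglia, astrocytes and vascular leptomeningeal cells among the cells kept. How many Tac2 neurons entered through imperfect sorting, or carried Pomc UMIs from other cells, was not tested. Each age was 1 library, counted here at 6 ages from E11.5 to P12. No replicate of any age exists, so no p-value is given, and intervals are exact Poisson intervals of summed UMIs or exact Clopper-Pearson binomial intervals of shares, at 95%, which cover counting error only. PCR was corrected for by UMIs, but the animals within a pool cannot be told apart.

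Tac2 encodes the precursor of neurokinin B, a tachykinin peptide that signals through the receptor NK3R, the product of Tacr3. In the adult arcuate nucleus it is made by KNDy neurons, named for kisspeptin, neurokinin B and dynorphin, which carry receptors for sex steroids and drive the pulses of gonadotropin-releasing hormone. Neurons of several arcuate types, KNDy neurons among them, are known to descend in part from progenitors that transcribe Pomc for a time.

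The 300 bases around 3 transcription starts are shown because these genes lead the description below: Tac2 chose the cells, Kiss1 is the kisspeptin gene that shares its locus with the second most enriched symbol, and Nhlh2, a basic helix-loop-helix factor gene, was found in nearly every Tac2 neuron. They are the RefSeq promoters of GRCm38.p6, 250 bases before and 50 after the start, at chr10:127724228-127724527 (plus strand), chr1:133326962-133327261 (plus strand) and chr3:102009895-102010194 (plus strand). Capitals mark CAGCTG, a form of the E-box that such factors bind, or AGGTCA, the half-site of many nuclear receptors, read here as TGACCT on the other strand.
Tac2: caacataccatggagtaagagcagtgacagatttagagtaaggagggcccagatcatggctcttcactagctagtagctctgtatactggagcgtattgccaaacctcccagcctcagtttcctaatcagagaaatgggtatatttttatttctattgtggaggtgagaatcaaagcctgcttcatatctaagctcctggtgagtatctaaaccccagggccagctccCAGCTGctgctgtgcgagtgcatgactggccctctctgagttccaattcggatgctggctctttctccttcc
Kiss1: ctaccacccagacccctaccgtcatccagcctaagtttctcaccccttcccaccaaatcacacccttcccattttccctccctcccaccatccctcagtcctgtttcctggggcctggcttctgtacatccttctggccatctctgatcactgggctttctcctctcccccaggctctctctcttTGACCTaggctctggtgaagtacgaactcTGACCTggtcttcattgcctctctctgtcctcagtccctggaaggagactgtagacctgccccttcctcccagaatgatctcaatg
Nhlh2: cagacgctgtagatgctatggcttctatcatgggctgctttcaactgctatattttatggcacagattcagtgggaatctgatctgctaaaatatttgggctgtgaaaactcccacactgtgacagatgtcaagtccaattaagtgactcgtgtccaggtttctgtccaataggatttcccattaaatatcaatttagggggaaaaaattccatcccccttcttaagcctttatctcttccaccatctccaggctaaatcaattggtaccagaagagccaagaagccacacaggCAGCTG
The Tac2 and Nhlh2 windows each held 1 CAGCTG and the Kiss1 window held 2 half-sites and no CAGCTG. Of the 32851 mouse promoters of the same length, 16.3% held CAGCTG and 16.3% held AGGTCA on either strand, so these matches are common and describe letters only. The windows of Sox14, Sphkap and Ap1s2 held neither motif, nor TAATTA (5.29% of promoters) or AACAAT (10.7%). Lhx5 and Gm28040 were not matched.

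Tac2 neurons were absent from the youngest libraries by this rule and made up a larger share of neurons at E17.5. At E11.5 no cell of 1498 had a Tac2 UMI, and 0 of 1376 neurons allows a share of up to 0.218% by a limit of 3 counts. At E13.5 there were 6 cells with 6 Tac2 UMIs in all, none with 2, and 0 of 1699 neurons allows up to 0.177% by the same limit. The share was 3.72% of neurons at E15.5 (interval 2.94 to 4.64) and 10.3% at E17.5 (8.61 to 12.2), which do not overlap. The same rule found 820 of 3582 neurons at P5 and 278 of 2228 at P12, in libraries made with another version of the reagents, so that these shares and the embryonic ones are not on the same footing. Shares of sorted, Pomc-positive cells depend on the gate and do not give the share of such neurons in the hypothalamus.

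The values that chose the cells are a description. Tac2 neurons held 2 to 38 Tac2 UMIs at E15.5 (median 4) and 2 to 42 at E17.5 (median 3), or 1.06 to 48.0 and 1.16 to 45.8 per 10000 UMIs. At the limit, 20 and 40 of them had exactly 2, and 37 and 100 neurons with low Pomc lay just outside with 1. At the Pomc limit, 9 and 17 members held 5 to 10 Pomc UMIs per 10000, while 12 and 6 neurons with at least 2 Tac2 UMIs were left out at 10 or more. Pomc itself was found as exactly 1 UMI in 40 of 75 and 67 of 117 Tac2 neurons. The cells left out for high Pomc at E15.5 carried 2.21 Lhx5, 3.69 Sox14 and 13.0 Nhlh2 UMIs per 10000, close to the 2.83, 5.65 and 13.7 in the members nearest the limit. At E17.5 the 6 cells left out stood lower, with 0.878 Lhx5, 2.17 Sox14 and 5.34 Nhlh2, and carried 2.95 Isl1 UMIs per 10000, against 0.978 in the 17 members nearest the limit.

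Depth, sex and other cells differed in ways that touch the results. Tac2 neurons had a median of 8580 UMIs at E15.5 and 6471 at E17.5, fewer than the 10778 and 8223 of the other neurons of their library. Microglia, endothelial and pituitary markers were near 0 in Tac2 neurons in both libraries (summed levels of the lists at most 0.0775 UMIs per 10000). The blood markers, 4 haemoglobin genes, had summed levels of 1.13 (E15.5) and 0.646 (E17.5), against 1.50 and 0.566 in other neurons, and markers of vascular leptomeningeal cells had 2.66 and 0.0281, against 2.08 and 0.0171. Pooled embryos differed in sex: 70.0% of other neurons at E15.5 held a Xist UMI and none of the Y-linked Ddx3y, Eif2s3y, Kdm5d and Uty, against 23.1% at E17.5. Tac2 neurons followed their libraries, with 57 of 75 cells of that kind at E15.5 and 29 of 117 at E17.5, and cells with a Y-linked UMI and no Xist numbered 7 and 51. Age and the sex of the pooled embryos therefore cannot be fully told apart between the libraries. The libraries shared 1 cell barcode, and no Tac2 neuron was among those cells. The doublet caller marked 0 and 1 Tac2 neurons.

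Compared with the other neurons of their library, Tac2 neurons carried more RNA of a set of developmental regulators and of the oestrogen receptor gene Esr1, and less of some factor genes of POMC neurons, Isl1 among them, and of Otp, Npy and Agrp. A level averages the UMIs per 10000 over the cells of a class, and a gene was called when its ratio, after adding 0.1 to both levels, passed 2-fold, among genes with a mean level of at least 0.1. Of 8354 genes tested at E15.5, 130 (1.56%) were higher in Tac2 neurons and 107 (1.28%) lower, 2.84% in all. Of 8378 tested at E17.5, 81 (0.967%) were higher and 76 (0.907%) lower, 1.87% in all. Both libraries called 48 of 7861 genes higher (0.611%) and 38 lower (0.483%). The 15 leading genes that were higher in both included Tac2, which the rule used, and Gm28040, Gm27199, Ap1s2, Sox14, Lhx5, Hs3st4, Ramp3, Rprm, Adcy1, Nhlh2, Esr1, Rap2c and Tmem163. Since the cells were split by Tac2 and Pomc, these ratios describe the split and test nothing. A gene can reach the limit for testing through the class where it is high, so counts within lists are descriptions too.

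**Figure D1:**
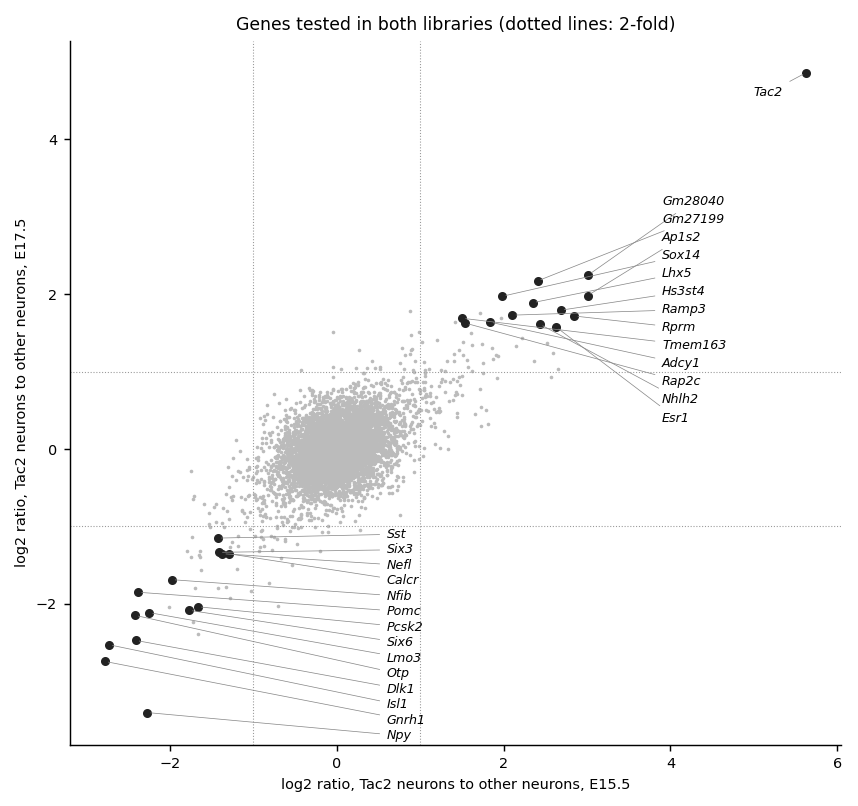
Each point is 1 of the genes tested in both libraries, with the log2 ratio of its level in Tac2 neurons to that in the other neurons at E15.5 (x axis) and at E17.5 (y axis). Black points are the leading genes named in the text, which lie beyond the dotted 2-fold lines in both libraries, and Tac2, used by the rule, stands apart at 5.63 and 4.86.

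The markers given for these cells were Tac2, Lhx5, Nr5a2 and Sphkap, chosen with results of these data in view. Lhx5, a LIM homeodomain factor of the developing forebrain and mammillary region, stood at 1.80 UMIs per 10000 in Tac2 neurons and 0.273 in other neurons at E15.5, a log2 ratio of 2.35, and at 1.49 and 0.330 at E17.5, a log2 ratio of 1.89. Intervals of the summed level were apart in both libraries, 1.33 to 1.91 against 0.229 to 0.270, and 1.10 to 1.60 against 0.231 to 0.300. Nr5a2, the nuclear receptor LRH-1, stood at 0.504 and 0.142 at E15.5 and at 1.01 and 0.407 at E17.5, again with intervals apart in each library. Sphkap, an anchoring protein for the cAMP-dependent protein kinase, was too low to be tested at E15.5, with 11 UMIs in 11 of 75 Tac2 neurons (0.134 against 0.0456 in other neurons). At E17.5 it stood at 0.657 against 0.140, from 58 UMIs. Of the 4 markers, 3 of 3 tested passed 2-fold at E15.5 and 4 of 4 at E17.5, Tac2 included.

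Lhx5 was not found in every Tac2 neuron. At least 1 UMI was present in 58 of 75 cells at E15.5 (77.3%) and 68 of 117 at E17.5 (58.1%), against 16.4% and 15.4% of other neurons. Among Otp neurons, here other neurons with at least 2 UMIs of the AGRP-lineage factor Otp, which served as a background class, the shares were 4.09% and 3.73% at median depths of 9262 and 8753 UMIs. After each cell was thinned to 2000 UMIs, shares were 29.3% and 26.1% in Tac2 neurons, 4.54% and 5.91% in other neurons and 0.862% and 0.415% in Otp neurons. The thinned shares of the libraries lie closer to each other than the unthinned ones.

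Gm27199, an antisense RNA on chromosome 5 (120419659 to 120431767, minus strand, GRCm38), followed Lhx5 (120431699 to 120441223, plus strand). The genes run in opposite directions and overlap at their starts, over the first 69 bases of Lhx5. The level of Gm27199 was 2.23 against 0.339 at E15.5 and 3.12 against 0.615 at E17.5. Reads of the shared stretch can be told apart only if counted by strand, which is not stated in the sources used here. The stretch lies at the start of both genes, while the libraries were made with a 3' method, and how many reads fell there was not tested. Sox14, an SRY-box factor, was found in more Tac2 neurons than Lhx5: 92.0% at E15.5 and 80.3% at E17.5 had a UMI, at levels of 4.26 and 3.22 against 1.00 and 0.746 in other neurons. Sox14 and Lhx5 were found together in 54 of 75 and 57 of 117 Tac2 neurons, and neither in 2 and 12.

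Nhlh2 was found in nearly all Tac2 neurons. Its values per cell ran from 0.857 to 29.0 UMIs per 10000 at E15.5 (median 12.8) and from 0 to 31.9 at E17.5 (median 7.62), and 75 of 75 and 113 of 117 cells held a UMI. Means were 14.4 against 2.59 in other neurons at E15.5 and 8.25 against 2.63 at E17.5, log2 ratios of 2.43 and 1.61. Nhlh2 was the member of the list of neuronal immaturity that passed 2-fold, 1 of 10 tested at E15.5 and 1 of 9 at E17.5. Of all genes tested, 1.56% and 0.967% were higher. The other members of the list that were tested (Dcx, Sox4 and Sox11 among them) lay within 2-fold. Tbx3, a T-box factor that maintains peptidergic identity in arcuate neurons, was called only at E15.5, at 3.59 against 1.55, while at E17.5 it stood at 3.30 against 2.60. Nkx2-1, which marks the ventral hypothalamus and was found in 75 of 75 and 106 of 117 Tac2 neurons, stood at 6.31 against 3.63 and at 4.59 against 2.96, within 2-fold in both libraries.

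**Figure D2:**
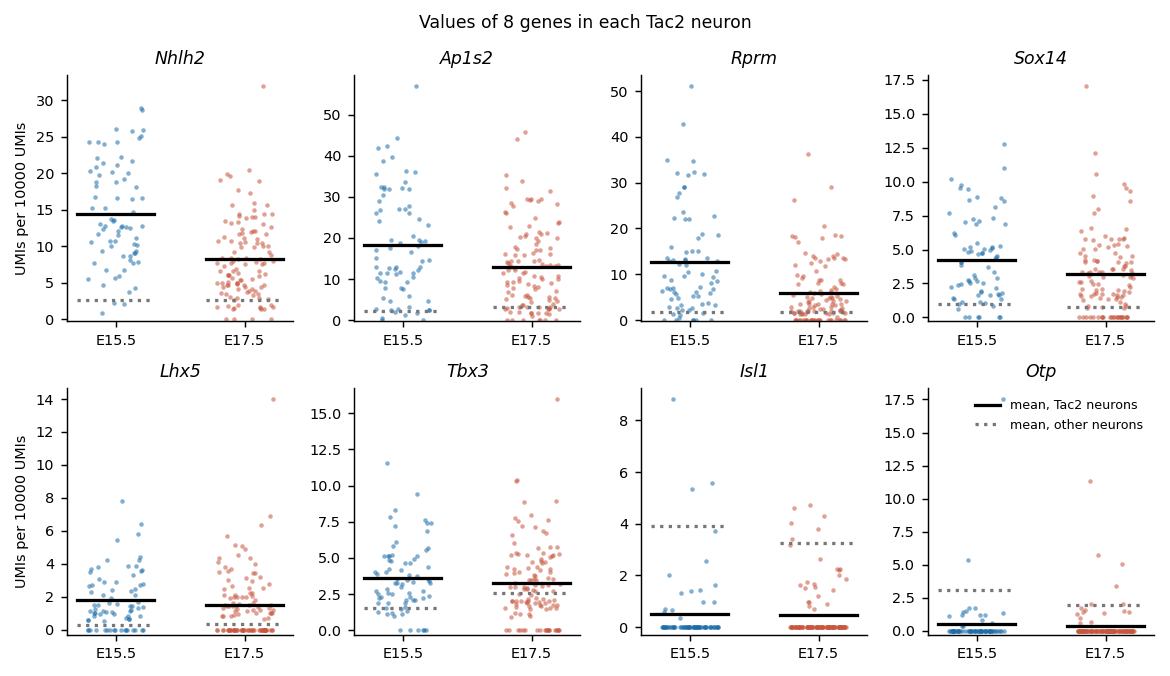
Each point is 1 Tac2 neuron (75 at E15.5, 117 at E17.5), with its UMIs per 10000 UMIs of 8 genes on the y axis. Black bars are means over Tac2 neurons and dotted bars means over the other neurons of the same library. Most cells lie above the dotted bar for Nhlh2 and Ap1s2, and at 0 for Isl1 and Otp, whose means rest on a few cells.

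Esr1 stood high early. This gene of oestrogen receptor alpha reached 0.711 UMIs per 10000 in Tac2 neurons at E15.5 against 0.0312 in other neurons, a log2 ratio of 2.63, and 1.06 against 0.288 at E17.5, a log2 ratio of 1.58. A UMI was found in 37.3% and 47.9% of Tac2 neurons, against 2.58% and 14.4% of other neurons and 1.08% and 5.81% of Otp neurons. Thinned shares kept this order, at 9.33% and 18.3%, 0.722% and 4.53%, and 0.647% and 1.66%. Pgr, of the progesterone receptor, was near the floor, with 2 and 6 UMIs in all Tac2 neurons and levels of 0.0341 against 0.0316 and 0.0691 against 0.0627, with overlapping intervals. In a list of 42 nuclear receptors, 6 of 19 tested were higher at E15.5 (Nr5a2, Nr4a1, Nr4a3, Esr1 and Rara among them) and 2 lower (Nr5a1 and Nr2f2), with a median log2 ratio of 0.09 against 0.01 over all genes tested. At E17.5, 3 of 15 were higher (Nr5a2 and Esr1 among them) and Nr3c1, of the glucocorticoid receptor, was lower. Of all genes tested at E15.5 and E17.5, 1.56% and 0.967% were higher, and 1.28% and 0.907% lower.

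The peptide genes of KNDy neurons were uneven. Kiss1 itself was rare, with 6 UMIs in 5 Tac2 neurons at E15.5 and 13 UMIs in 12 at E17.5, against 1 and 11 UMIs in all other neurons. Most UMIs of its locus carried the symbol Gm28040, a transcript on chromosome 1 (133309827 to 133329901) that contains the whole of Kiss1 (133321875 to 133329901), so the division of reads between these symbols is uncertain. Gm28040 stood at 0.838 against 0.0161 at E15.5, a log2 ratio of 3.01, and at 1.11 against 0.154 at E17.5, a log2 ratio of 2.25. It was found in 33 of 75 and 43 of 117 Tac2 neurons, and in 0.431% and 3.32% of Otp neurons. At P5 and P12, where the list of genes differs, Gm28040 was listed at 0 in Tac2 neurons and Kiss1 at 0.277 and 0.326 UMIs per 10000, so the 2 symbols were not counted alike and the change of Kiss1 with age is not read here.

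Pdyn, of the dynorphin precursor, was higher at E15.5 (0.445 against 0.165, intervals 0.283 to 0.592 and 0.161 to 0.196) and not at E17.5 (0.254 against 0.278, with overlapping intervals). Tacr3, of the neurokinin B receptor, was also called at E15.5 alone, with 17 UMIs in 15 cells (0.236 against 0.0227). At E17.5 it had 4 UMIs in 4 cells (0.0449 against 0.0220, with overlapping intervals) and was under the limit for testing. The list of 12 KNDy genes had been put together with results of these data in view. At E15.5, 6 of 6 tested passed 2-fold upward (Gm28040, Pdyn, Tacr3, Esr1 and Sox14 among them), against 1.56% of all genes tested. At E17.5 it was 4 of 6 (Gm28040, Esr1 and Sox14 among them), against 0.967%. None passed downward, and the median log2 ratios were 1.98 and 1.64. Only 6 of the 12 genes reached the limit for testing in each library. Gm28040, Tacr3 and Esr1 reached it at E15.5 through their levels in Tac2 neurons alone. The counts for this list therefore describe the choice of genes and test nothing. Prlr, of the prolactin receptor, was not higher in either library, at 0.0112 against 0.0346 and 0.115 against 0.141, with overlapping intervals. Of the other tachykinin genes, Tac1, of the substance P precursor, was lower at E15.5 and under the limit for testing at E17.5.

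Genes of less specific roles led the list beside these regulators. Ap1s2, on the X chromosome, encodes a small subunit of the AP-1 clathrin adaptor, which sorts cargo at the trans-Golgi network. Its cells ranged from 0 to 56.9 UMIs per 10000 at E15.5 (median 15.2) and from 0 to 45.7 at E17.5 (quartiles 4.79 and 19.2), and its mean of 18.2 against 2.18 and 13.0 against 3.22 gave log2 ratios of 3.01 and 1.98. Rprm, of the p53-responsive protein Reprimo, stood at 12.7 against 1.67 and at 5.84 against 1.71. Intervals of Ap1s2 and Rprm were apart from those of other neurons in both libraries.

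Signalling genes were among the leaders as well. Ramp3, which pairs with the calcitonin receptor-like receptor, stood at 0.636 against 0.0710 and 0.634 against 0.121, and Adcy1, a calcium-stimulated adenylyl cyclase, at 0.749 against 0.138 and 0.699 against 0.157. Irs4, an adaptor of insulin and growth factor signalling on the X chromosome, passed 2-fold only at E15.5 (1.40 against 0.154), while at E17.5 it stood at 1.56 against 0.769. Trpc5, a receptor-operated cation channel, was higher in both, at 0.437 against 0.0223 and 1.08 against 0.252. In the list of ion channels, 3 of 18 tested were higher at E15.5 (Kcnc1, Kcnd2 and Trpc5) and Kcnip1 lower, and 2 of 21 were higher at E17.5 (Kcnip4 and Trpc5). In the list of axon guidance genes, 4 of 23 were higher at E15.5 (Unc5a, Nrp2, Sema6a and Efnb1) and 2 lower (Robo2 and Nrp1), and of 24 at E17.5 Sema6d was higher and Ephb1 lower. Over all genes tested, 1.56% and 0.967% were higher.

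Of 8 immediate early genes tested, 5 were higher in Tac2 neurons at E15.5 (Fos, Fosb, Junb, Btg2 and Npas4) and 3 lay within 2-fold. At E17.5 Fos was higher and 7 lay within 2-fold. The shares that were higher over all genes tested were 1.56% and 0.967%. Fos stood at 4.15 against 1.39 and at 2.95 against 1.21. These genes respond to handling as well as to neuronal activity. Of the heat shock genes, 0 of 4 tested passed 2-fold in either library, with summed levels of 40.5 against 46.1 and 28.8 against 35.4. The part of tissue dissociation in the Fos values was not tested.

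Genes of GABA synthesis and vesicular loading were low, while a glutamate transporter gene was at the level of other neurons. Slc17a6, of the vesicular glutamate transporter VGLUT2, stood at 0.471 against 0.428 at E15.5 and 0.382 against 0.281 at E17.5, with overlapping intervals, and was found in 30.7% and 23.9% of Tac2 neurons but in 8.41% and 2.90% of Otp neurons. Slc32a1, of the vesicular GABA transporter, gave 4 UMIs in each library (0.0335 against 0.349 and 0.0394 against 0.267). Gad1, of a GABA-synthesizing enzyme, stood at 0.126 against 0.321 and 0.194 against 0.509 and was called only at E17.5. In the list of granule proteins, Pcsk1n, of the precursor proSAAS, stood at 50.4 in Tac2 neurons at E15.5 (summed level 46.7 to 49.9, others 22.3 to 22.6) and at 54.8 against 39.2 at E17.5, called in the first library only, while the convertase gene Pcsk2 was lower in both (0.111 against 0.569 and 0.139 against 0.880).

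Some genes of neighbouring arcuate lineages were lower. The 15 leading genes that were lower in both libraries included Gnrh1, Isl1, Dlk1, Npy, Otp, Lmo3, Pomc, which the rule used, Six6, Nfib, Pcsk2, Nefl, Six3, Calcr and Sst. Isl1, a LIM homeodomain factor needed for Pomc expression, stood at 0.505 against 3.92 at E15.5 and 0.482 against 3.25 at E17.5, log2 ratios of -2.73 and -2.53. It was found in 16 of 75 and 25 of 117 Tac2 neurons, against 69.6% and 72.5% of other neurons. Otp stood at 0.499 against 3.11 and 0.360 against 1.94 and was found in 15 and 16 Tac2 neurons, of which 6 and 9 also held Isl1. Those 6 cells held 11733 to 28278 UMIs and those 9 held 6455 to 17308, against medians of 8580 and 6471 over all Tac2 neurons. The part of depth or doublets in this overlap was not tested. Among the 10 factors of arcuate POMC neurons on the list, 4 were lower in each library (Isl1, Prdm12, Six3 and Six6), and Sox14, with Tbx3 at E15.5, was higher, and the median log2 ratio of the list was 0.29 and 0.26. Shares over all genes tested were 1.28% and 0.907% lower, and 1.56% and 0.967% higher. All 3 AGRP/NPY markers were lower in both, with a summed level of 0.775 against 4.97 at E15.5 and 1.27 against 10.9 at E17.5. Against Sox14 neurons without a Tac2 UMI, a class defined later, all 3 turned direction, with log2 ratios of 0.14 and 0.79 for Agrp, 0.64 and 0.41 for Npy, and 0.97 and 0.20 for Otp.

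Npy, of neuropeptide Y, stood at 0.233 against 1.51 and 0.521 against 6.47, with log2 ratios of -2.27 and -3.40. Of 16 neuropeptide genes tested at E15.5, 9 were lower, Pomc among them, and 2 higher (Tac2 and Pdyn). Of 13 at E17.5, 6 were lower, Pomc among them, and Tac2 was higher. The rule used Tac2 and Pomc, so their places in these counts describe the rule. Over all genes tested, 1.28% and 0.907% were lower, and 1.56% and 0.967% higher. Gnrh1 was not found in Tac2 neurons at E15.5 (0 of 75), and the 0.588 in other neurons rested on 43 of 1940 cells (2.22%). At E17.5 a Gnrh1 UMI was found in 15.4% of Tac2 neurons, 17.1% of other neurons and 41 of 241 Otp neurons, and the level of 0.220 in Tac2 neurons lay beside 0.200 in the Otp neurons and 2.04 in all other neurons.

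At E15.5 the other neurons also held cells with genes of the mammillary and premammillary region, and 5 of 14 tested on that list (Barhl1, Foxa1, Ebf1 and Ebf2 among them) were lower in Tac2 neurons, with Lhx5 higher. Of all genes tested at that age, 1.28% were lower and 1.56% higher. At E17.5 only 4 of that list were tested, with Lhx5 higher and none lower, since the region's genes were scarcer in the whole library, the summed level of the list in other neurons being 6.76 at E15.5 and 1.996 at E17.5. The ratios at E15.5 and E17.5 thus compare Tac2 neurons with different mixtures.

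With Sox14 neurons that had no Tac2 UMI as the comparison, many of these differences shrank at E17.5, and some changed direction in each library. At E15.5 more genes passed 2-fold than against all other neurons. The Sox14 class, defined after the values were seen, held other neurons with at least 2 Sox14 UMIs, 0 Tac2 UMIs and low Pomc, 285 cells at E15.5 and 92 at E17.5. Against it 296 of 8231 genes passed 2-fold at E15.5 (3.6%), 180 higher (2.19%) and 116 lower (1.41%). At E17.5 it was 87 of 8349 (1.04%), 44 higher (0.527%) and 43 lower (0.515%). Esr1 stood at 0.0307 in Sox14 neurons at E15.5, no higher than in all other neurons, and at 0.763 at E17.5, where its interval (0.474 to 0.828) overlapped that of Tac2 neurons, which began at 0.775.

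The same was seen for other leaders. Ap1s2 stood at 3.28 in Sox14 neurons and 18.2 in Tac2 neurons at E15.5, and at 7.41 and 13.0 at E17.5, the log2 ratio falling from 2.44 to 0.80. Nhlh2 ratios were 1.57 and 0.56, Rprm ratios 1.88 and 0.61, and Gm28040 ratios 3.12 and 1.40. Lhx5 was present in Sox14 neurons at 0.856 and 0.977, below Tac2 neurons in each library, with intervals apart. The ratios of Esr1, Ap1s2, Nhlh2, Rprm and Gm28040 were thus smaller at E17.5 than at E15.5, a difference that was not tested, and whether Sox14 neurons without a Tac2 UMI include Tac2 neurons missed by shallow counts was not tested.

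Levels were also read along the number of Tac2 UMIs among neurons with low Pomc. Neurons with 1 Tac2 UMI, 37 at E15.5 and 100 at E17.5, lay between those with none and those with 2 in Nhlh2, Lhx5 and Isl1, but not in every gene: Sphkap at E15.5 was at 0 with 1 Tac2 UMI and at 0.0554 with none, and Nr5a2 at E17.5 stood at 1.18 with 1, above the 1.01 of all Tac2 neurons. At E15.5, Nhlh2 stood at 2.23 with 0 Tac2 UMIs, 9.41 with 1 and 13.7 with 2, and Lhx5 at 0.282, 1.38 and 2.01. At E17.5, Nhlh2 stood at 2.18, 5.86 and 8.52, and Isl1 at 3.31, 1.69 and 0.683. Beyond 2 UMIs, Lhx5 showed no further order, whereas Ap1s2 at E15.5 stood at 9.09 with 2 Tac2 UMIs, 20.4 with 3 to 4, 18.6 with 5 to 9 and 27.4 with 10 or more, and Gm28040 at E17.5 at 0.684 with 2 and 1.84 with 10 or more. Each point is a mean over 15 to 40 cells within the Tac2 neurons, and deeper cells reach more UMIs of every gene, though median depth did not rise steadily along the bins (8609 UMIs in cells with 2 and 7911 in cells with 10 or more at E15.5).

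**Figure D3:**
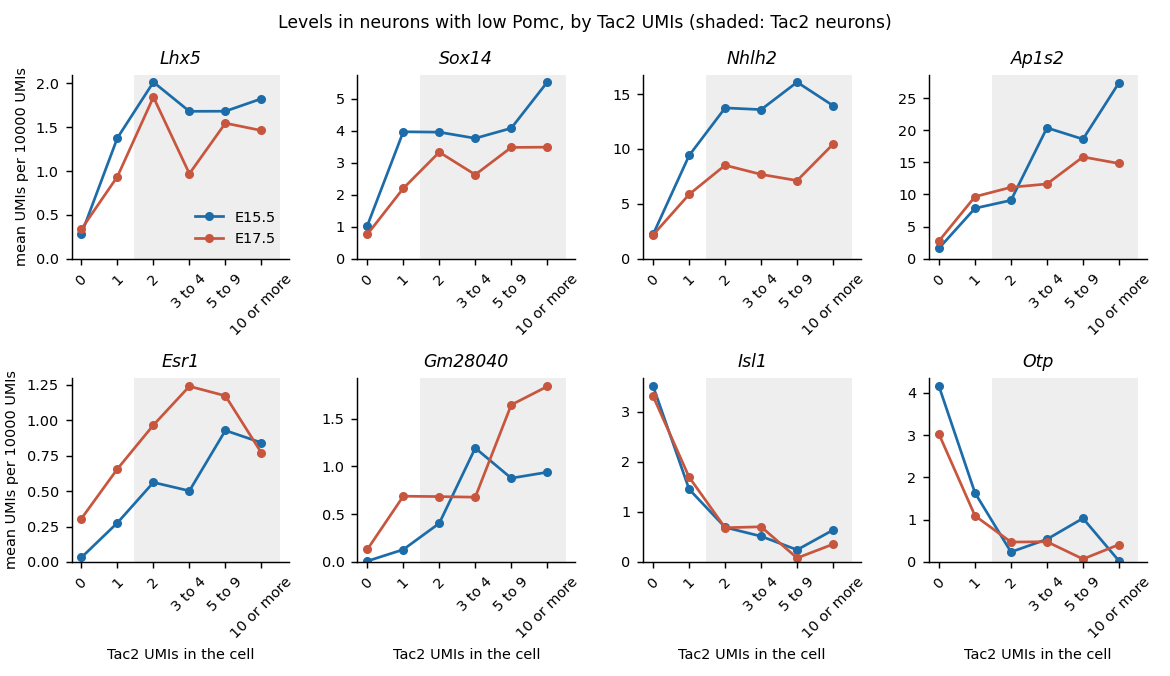
Mean UMIs per 10000 (y axis) of 8 genes in neurons with low Pomc, by the number of Tac2 UMIs in the cell (x axis), at E15.5 (blue) and E17.5 (red). The shaded part holds the Tac2 neurons. Lhx5, Sox14 and Nhlh2 are higher with 1 Tac2 UMI than with 0, Isl1 and Otp are lower, and Ap1s2 is higher with 10 or more Tac2 UMIs than with 2 at E15.5.

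Within the Tac2 neurons, the 54 and 57 cells with both Sox14 and Lhx5 carried 0.766 and 1.19 Esr1 UMIs per 10000, against 0.629 and 1.12 in the 19 and 48 cells with 1 of the pair. The 12 cells with neither at E17.5 held 0.166 Esr1 but 8.02 Tac2 and 14.4 Ap1s2. At E15.5 the 2 cells with neither held 1.88 Tac2, 0.925 Ap1s2 and 4.71 Six6 UMIs per 10000. Sst, of somatostatin, was found in few cells, with 83 UMIs in 5 cells at E15.5 and 50 UMIs in 7 at E17.5.

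Between the libraries, 147 of 8374 genes tested (1.76%) were higher in Tac2 neurons at E17.5 and 124 (1.48%) lower, 3.24% in all. In the other neurons of the same libraries, 158 of 8377 passed (1.89%), 75 higher (0.895%) and 83 lower (0.991%). These shares are not on the same footing, since they rest on 75 and 117 Tac2 neurons and on 1940 and 1017 other neurons. With at least 5 Tac2 UMIs, which kept 37 and 48 Tac2 neurons, 678 genes passed. Whether Tac2 neurons differed more between the libraries than other neurons was not tested. Each age was 1 pool, so age, sex of the embryos and library cannot be told apart in these values. The values within cells that held Xist and no Y-linked UMI (57 and 29 Tac2 neurons) are therefore given beside the leading genes.

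Pcdh11x, an X-linked protocadherin gene, stood at 0.102 at E15.5 (8 UMIs) and 1.27 at E17.5 (108 UMIs), a log2 ratio of 2.76, and 2.25 within Xist cells. It was also higher in other neurons, from 0.109 to 0.381, less than in Tac2 neurons. Scg2, of the granule protein secretogranin II, went from 0.973 to 5.44 in Tac2 neurons, a log2 ratio of 2.37 (1.81 within Xist cells), and from 1.54 to 3.45 in other neurons. Sphkap had a log2 ratio of 1.70 (1.07 within Xist cells) against 0.72 in other neurons. The value within Xist cells rests on 9 UMIs at each age, with overlapping intervals (0.0747 to 0.310 and 0.210 to 0.873). Gm12027, a long non-coding RNA gene on chromosome 11, went from 0.176 to 0.915 in Tac2 neurons and from 0.0156 to 0.237 in others. The other leading symbols that were higher at E17.5 (Rpl13-ps3, Gm8730, Rpl10-ps3, Rpl9-ps6, Gm9844, PISD and Gm11808) include pseudogenes and near copies of ribosomal genes, whose reads are uncertain, and their log2 ratios of 1.88 or more stood beside 1.37 to 1.98 in other neurons.

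The collagen genes Col3a1, Col1a2 and Col1a1 led the genes that were lower at E17.5, at 1.01, 0.746 and 0.552 UMIs per 10000 at E15.5 and 0 or 1 UMI in all at E17.5. They rest on 1 cell. Of the 346 UMIs of the 6 markers of vascular leptomeningeal cells in E15.5 Tac2 neurons, 334 lay in 1 cell that had 2 Tac2 UMIs, and 28 other neurons (1.44%) were of that kind, against none at E17.5. Without such cells the log2 ratios went from -3.48 to -1.04, from -2.90 to -0.20 and from -2.70 to 0, and that of Igfbp2 from -1.80 to -1.19.

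The remaining genes that led downward did not rest on that cell. Nr4a1, an immediate early nuclear receptor, went from 0.776 to 0.147 in Tac2 neurons, a log2 ratio of -1.83 (-1.46 within Xist cells), and from 0.164 to 0.0691 in others. Nr4a2, of the same family, went from 0.699 to 0.112, and in other neurons from 1.03 to 0.0996. Rrad, of a small GTPase that restrains calcium channels, had a log2 ratio of -2.07 against -0.46 in others, and Serpine2, a secreted protease inhibitor, of -1.86 against -1.22. Islr2, a membrane protein of growing axons, had -1.59 against -1.71. Within Xist cells Islr2 stood at -0.68, inside 2-fold, and Serpine2 at -1.14.

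Some leaders of the comparison with other neurons stood lower in Tac2 neurons at E17.5 than at E15.5, and not so in other neurons. The difference between these ratios was not tested. Rprm had a log2 ratio of -1.11 in Tac2 neurons and 0.03 in other neurons, Nhlh2 of -0.80 and 0.02, and Ap1s2 of -0.48 and 0.54. Within Xist cells the first values were -0.71, -0.48 and -0.35, so that Rprm lay inside 2-fold. Esr1 went the other way, with 0.51 in Tac2 neurons and 1.56 in other neurons.

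**Figure D4:**
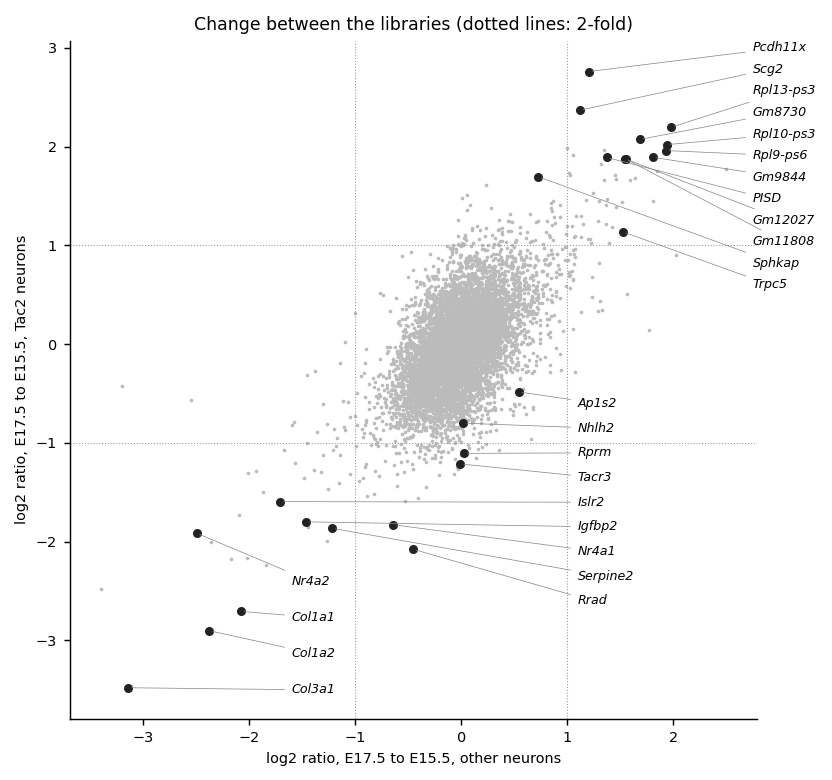
Log2 ratio of E17.5 to E15.5 in other neurons (x axis) and in Tac2 neurons (y axis), 1 point per gene. Black points are leading genes of Tac2 neurons and 6 further genes named in the text. Col3a1, Col1a2 and Col1a1 stand at the lower left in both, and Rprm and Nhlh2 lie near 0 in other neurons and below 0 in Tac2 neurons.

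At E17.5 the Tac2 neurons could also be compared by sex marker. Nhlh2 stood at 10.4 in the 29 cells with Xist and no Y-linked UMI (interval of the summed level 8.47 to 11.3) and 7.12 in the 51 cells with a Y-linked UMI and no Xist (5.91 to 7.59), and Rprm at 8.37 (7.29 to 9.93) and 5.04 (3.76 to 5.13). Lhx5 stood at 2.17 (1.50 to 2.84) and 1.15 (0.758 to 1.44). These intervals did not overlap, while those of Sox14, Esr1, Gm28040 and Ap1s2 did. In the other neurons of that library, Nhlh2 stood at 2.38 with Xist and 2.73 with Y-linked genes, Rprm at 1.79 and 1.52, and Lhx5 at 0.337 and 0.315. The Tac2 neurons at E15.5 held 57 and 7 cells of these kinds. There Nhlh2 stood at 14.6 with Xist and 14.9 with Y-linked genes, Rprm at 13.7 and 11.3, and Lhx5 at 1.88 and 1.34, with overlapping intervals for all 3 genes. The cells of each kind come from an unknown number of embryos of 1 pool per age, so that no spread between animals stands behind these values.

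Seen over the ages, the mean Tac2 level was 8.32 UMIs per 10000 at E15.5 and 8.76 at E17.5, then 29.1 at P5 and 64.5 at P12 in cells that met the same rule. The younger postnatal library is P5 in its title and P6 in its protocol. Sphkap stood at 0.134, 0.657, 1.44 and 1.98 at the 4 ages, Tacr3 at 0.236, 0.0449, 0.367 and 0.947, and Prlr, of the prolactin receptor, at 0.0112, 0.115, 0.854 and 2.11. Slc17a6 stood at 0.471, 0.382, 1.18 and 2.39. Nhlh2 stood at 14.4, 8.25, 2.26 and 1.50, and Sox14 at 4.26, 3.22, 2.19 and 1.33, each lower at every later age. In other neurons Nhlh2 stood at 2.59, 2.63, 0.855 and 0.388, and Sox14 at 1.00, 0.746, 0.373 and 0.0344, so that both were also lower at the postnatal ages there. Since the reagents and the list of genes changed between E17.5 and P5, that step is also a step of method.

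**Figure D5:**
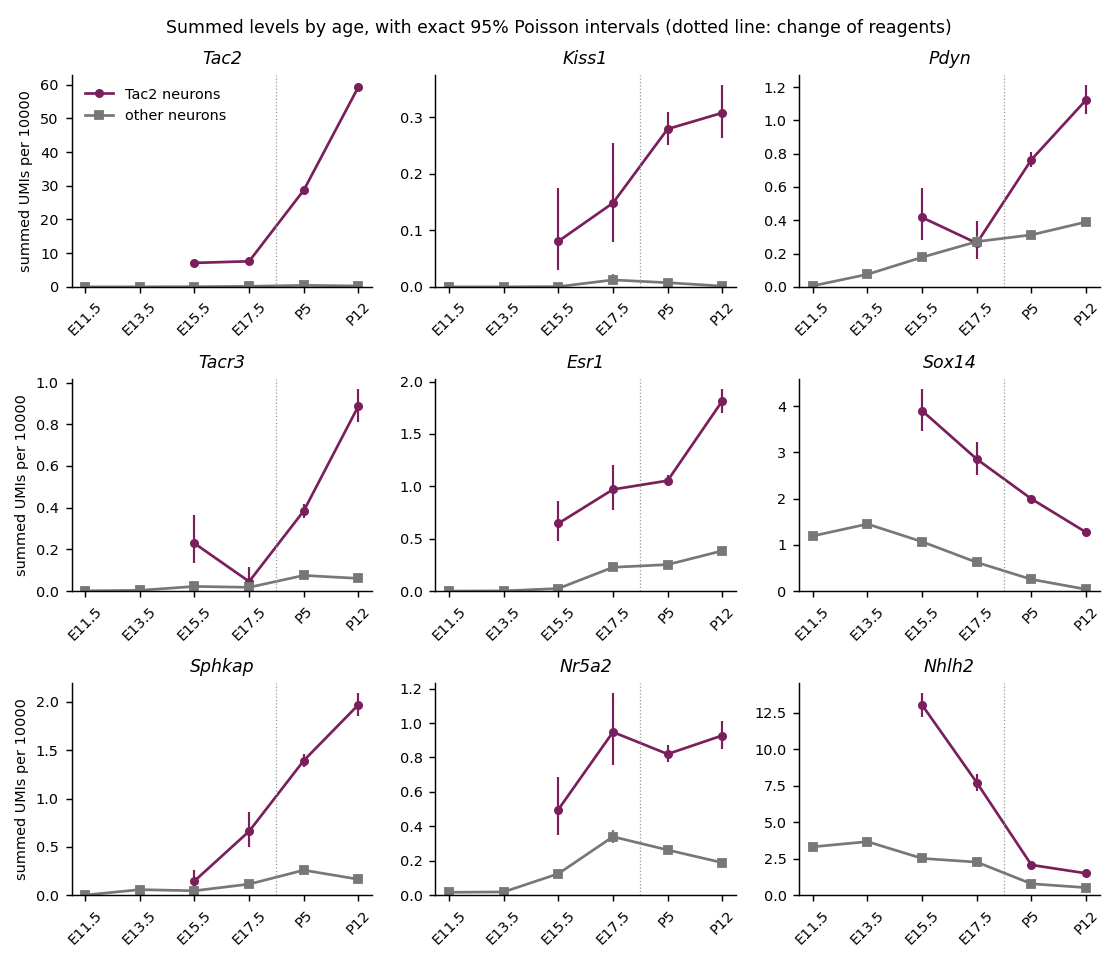
Summed UMIs per 10000 (y axis) of 9 genes at each age (x axis) in Tac2 neurons (circles) and the other neurons of the same library (squares), with exact Poisson intervals at 95% as vertical lines. Tac2 neurons exist by the rule from E15.5 on, and the dotted line marks the change of reagents. In Tac2 neurons Nhlh2 is lower and Sphkap higher at each later age, Nhlh2 is also lower in postnatal than in embryonic other neurons, and Kiss1 is not comparable across the dotted line because its locus was counted under different symbols.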

How the data were processed

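Single hypothalamic cells were measured with the 10x Genomics 3' method. The deposited values are UMI counts per gene and cell that the authors made with Cell Ranger (2.2.0 and 3.0.0 in the submitters' processing notes, without the library each served) on mm10, filtered by genes, UMIs and mitochondrial share and restricted to cells with a Pomc UMI, with no normalization. E15.5 held 24458746 UMIs in 2078 cells and E17.5 held 9832065 in 1139. From these counts, levels, ratios (0.1 added), intervals and shares were computed in Python 3.11.15 with NumPy 2.4.6 and SciPy 1.17.1. Shares were repeated after thinning to 2000 UMIs, which left out 2 Tac2 neurons and 2 other neurons at E17.5. Doublets were scored with Scrublet in scanpy 1.11.5, which marked 9 and 10 cells, and were kept. Ratios were checked on simulated counts. Named genes were the given markers, the members of fixed lists, the 15 with the largest smaller ratio over both libraries each way and the 10 with the largest ratio between libraries each way, with a level of at least 0.5 on the higher side. The cells and lists were chosen with earlier results of these data known. Classes of Sox14 neurons and Otp neurons, the split by sex marker, genes picked beyond this rule for a remark, and the removal of vascular cells were chosen after the values were seen. Positions are from GENCODE M21. Some genes are not reported here.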

Additional observations from a re-analysis of the deposited data

How the results depend on the processing

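No paired analysis was possible because each age was 1 library. Gene ratios were recomputed under 15 alternatives where they applied, 2898 values in all, of which 2377 stayed within counting error, 506 moved beyond it and 15 changed sign after passing 2-fold. The 2377 include 207 values without the filter on low levels, which alters the genes tested and cannot alter a ratio. Removing vascular cells took out no neuron at E17.5, so ratios within that library could not change either. Of the 15 genes that led upward, 11 stayed past 2-fold at E15.5 and 11 at E17.5 under every alternative except the Sox14 comparison, and of the 15 that led downward 7 and 8. With the Sox14 comparison included these were 9 and 3 upward and 3 and 2 downward. Tac2, which the rule used, is in each of the upward counts, and its place there was fixed by the rule. Pomc, also used by the rule, was among the 15 that led downward but did not stay past 2-fold under every alternative. With at least 1 Tac2 UMI, the shares of neurons were 5.56% and 19.1%, and 179 genes passed 2-fold between the libraries. With at least 5 Tac2 UMIs the shares were 1.84% and 4.23% and the counts 413 and 306 genes against other neurons and 678 between libraries. After thinning to 2000 UMIs before the rule, which left 25 and 35 Tac2 neurons, the shares were 1.36% and 3.36% and the counts 2398, 1440 and 3696, and Kiss1 at E17.5 had a log2 ratio of -0.48. With 0.5 added to both levels the counts were 58, 35 and 37. Among cells with Xist and no Y-linked UMI, 571 genes passed 2-fold against other neurons at E17.5 and 856 between libraries, with 29 Tac2 neurons at E17.5. Against other neurons with low Pomc, the Pomc ratio at E15.5 was 0.25. Against Sox14 neurons without Tac2, 87 genes passed at E17.5, and log2 ratios changed sign at E15.5 for Sox14 (-0.14), Npy (0.64), Otp (0.97), Pomc (0.34), Sst (2.05) and Agrp (0.14), and at E17.5 for Sox14 (-0.33), Gnrh1 (0.0504), Npy (0.41), Otp (0.20), Sst (0.74), Gad1 (0.12) and Agrp (0.79). Both comparison classes were chosen by low Pomc, and the second also by Sox14, so the Pomc and Sox14 values describe that choice. The cause of the other changes was not tested, beyond the smaller number of cells under the stricter rules and thinning. The Sox14 comparison, the removal of vascular cells and the Xist cells were added after the data were seen. Without replicates, counting error is the one limit that could be measured.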
